A study of Mus musculus with 6 samples.

Results

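The Mirg cluster is a run of miRNA hairpins in the imprinted Dlk1-Dio3 domain of mouse chromosome 12. The cluster was followed here from miR-379 at its start to miR-410 at its end, in real-time PCR profiles of aortas from 6 mice. Its members were chosen by name alone. Every assay whose miRNA number belongs to a hairpin of this run was taken, with any letter, arm or asterisk suffix, which gave 44 of the 596 mouse miRNA assays. These 44 assays carried 41 different names, because miR-487b, miR-494 and miR-543 each had an assay on both array cards.

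The mice were Apoe-/- females with the VE-Cadherin-CreERT2 transgene, a Cre recombinase that becomes active in endothelial cells once tamoxifen is given. In the 3 EC-Dicerflox mice both Dicer1 alleles were floxed (Dicer1flox/flox), and in the 3 EC-DicerWT littermates both were intact (Dicer1WT/WT). All 6 received tamoxifen on 5 days and, from an age of 6 to 8 weeks, 12 weeks of a high-fat diet that held 0.15% cholesterol and 21% crude fat. The comparison asks which miRNAs differ in the aortic wall after Dicer deletion was induced in the endothelium.

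Members of the cluster are cut from long transcripts of the maternal chromosome. Drosha frees each hairpin in the nucleus, Dicer cuts the hairpin into a short duplex in the cytoplasm, and a strand of the duplex is loaded into an Argonaute protein. The loaded strand finds its target mRNAs mainly through its seed, the bases 2 to 8 from the 5′ end. The cluster is best known from neurons and from placental and embryonic tissue. In blood vessels, miR-329, miR-487b, miR-494 and miR-495 have been studied in arterial remodelling and vessel growth.

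In the RefSeq annotation of GRCm38.p6 the 34 hairpins of the 41 names lay on the + strand of chromosome 12, over 34736 bases (chr12:109709060-109743795). They follow Meg3, Rtl1 and Rian and precede Dio3. The last 9 hairpins, from miR-453 to miR-410, start inside the annotated long non-coding gene Mirg (chr12:109734981-109749458), and the others lie upstream of its annotated start. Whether a hairpin is in an exon or an intron of the host transcript was not analysed here. Of the 41 names, 37 could be given a mature sequence. For 9 the RefSeq name was the same, and for 28 an older name without an arm was given the arm it has long stood for, a step done by hand. All following sequences are from RefSeq, run 5′ to 3′, and have the seed in capitals.

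The first set holds the members that crossed earliest in the aorta and for which a sequence was at hand. MiR-379 and miR-411 are the first hairpins of the cluster, and their seeds differ by a single base (G2A from miR-379 to miR-411, counted from the 5′ end).
miR-411 (chr12:109710190-109710210): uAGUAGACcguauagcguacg
miR-379 (chr12:109709065-109709085): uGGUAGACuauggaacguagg
miR-382 (chr12:109733781-109733802): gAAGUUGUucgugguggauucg
miR-134 (chr12:109734145-109734166): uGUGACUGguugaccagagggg

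The second set holds the members whose levels did not overlap between the groups, as described further on, except miR-487b, for which no sequence was at hand. The seeds shown were all different.
miR-412 (chr12:109743340-109743359): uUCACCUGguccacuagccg
miR-667 (chr12:109720061-109720083): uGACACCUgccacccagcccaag
miR-495 (chr12:109718795-109718816): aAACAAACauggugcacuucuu
miR-409-3p (chr12:109743204-109743225): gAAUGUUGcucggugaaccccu

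The third set shows how alike some members are, which matters for the PCR assays that have to tell them apart. The 5′ arms miR-376b* and miR-376c* share the seed UGGAUAU, the only seed that recurs among the 37 sequences, and differ at 1 position in all. The 3′ arms miR-376a and miR-376b differ at 3 positions, of which A4G, from miR-376b to miR-376a, is in the seed. MiR-300 and miR-381 also differ at 3 positions, with G4A, from miR-300 to miR-381, in the seed. MiR-543 and miR-495 differ at 4 positions and end alike.
miR-376b* (chr12:109723471-109723492): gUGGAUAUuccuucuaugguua
miR-376c* (chr12:109722733-109722754): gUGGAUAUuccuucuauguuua
miR-376b (chr12:109723508-109723528): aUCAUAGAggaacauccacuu
miR-376a (chr12:109723824-109723844): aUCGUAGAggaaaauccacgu
miR-300 (chr12:109724363-109724384): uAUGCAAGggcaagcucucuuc
miR-381 (chr12:109726870-109726891): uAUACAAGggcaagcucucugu
miR-543 (chr12:109717304-109717325): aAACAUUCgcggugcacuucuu

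The other vascular members with a sequence are shown last. MiR-494 and miR-329 lie near the start of the cluster.
miR-329 (chr12:109713541-109713562): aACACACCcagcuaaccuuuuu
miR-494 (chr12:109715367-109715388): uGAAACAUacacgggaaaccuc

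The values are cycle thresholds (Ct), that is, the number of PCR cycles an assay needs to reach a set signal, so a higher Ct means less RNA and a Ct of 40 means that nothing was detected. A level is the mean Ct of 5 control small RNAs in the sample minus the Ct of the assay. It is a log2 value as long as each cycle doubles the product, which was assumed. The control Ct lay between 19.44 and 20.36 in EC-Dicerflox and between 19.45 and 20.17 in EC-DicerWT samples, and from 421 to 454 of the 596 assays were detected per sample. Assays differ in efficiency and in preamplification, so the order of levels between members is an order of assays. Whole aorta was measured, so fewer cells of a type and less miRNA per cell cannot be told apart. Dicer1 mRNA was not part of these cards, and the deletion could not be checked from them.

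In several assays replicate 3 of each group crossed apart from the other samples. The third replicates of both groups crossed more than 2 cycles later than all 4 others in 4 of the 40 members tested (10%), namely miR-377, miR-380-5p, miR-453 and miR-300*. Over all 439 tested assays this was so, in either direction, in 4.78%, with 15 later and 6 earlier. MiR-377 had a Ct of 29.05, 29.71 and 34.62 in EC-Dicerflox replicates 1 to 3 and of 30.22, 29.21 and 38.00 in EC-DicerWT replicates 1 to 3. MiR-541, the next hairpin after miR-377 in the list, lay between 29.26 and 30.57 in all 6 samples. MiR-369-5p and miR-496 showed the opposite order without reaching this margin. MiR-369-5p crossed at 33.64, 32.68 and 30.49 in EC-Dicerflox and at 32.86, 32.28 and 30.10 in EC-DicerWT samples, so the third replicates came first in both groups. MiR-300 and miR-381, whose sequences are much alike, both crossed last in the third replicates. For miR-300 the Ct was 27.83, 27.40 and 32.83 in EC-Dicerflox and 27.70, 28.73 and 30.24 in EC-DicerWT, and for miR-381 it was 32.11, 32.29 and 35.93 and 31.94, 31.85 and 34.00. Changes of the members that rest on the third replicates are given below with and without them.

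**Figure D1:**
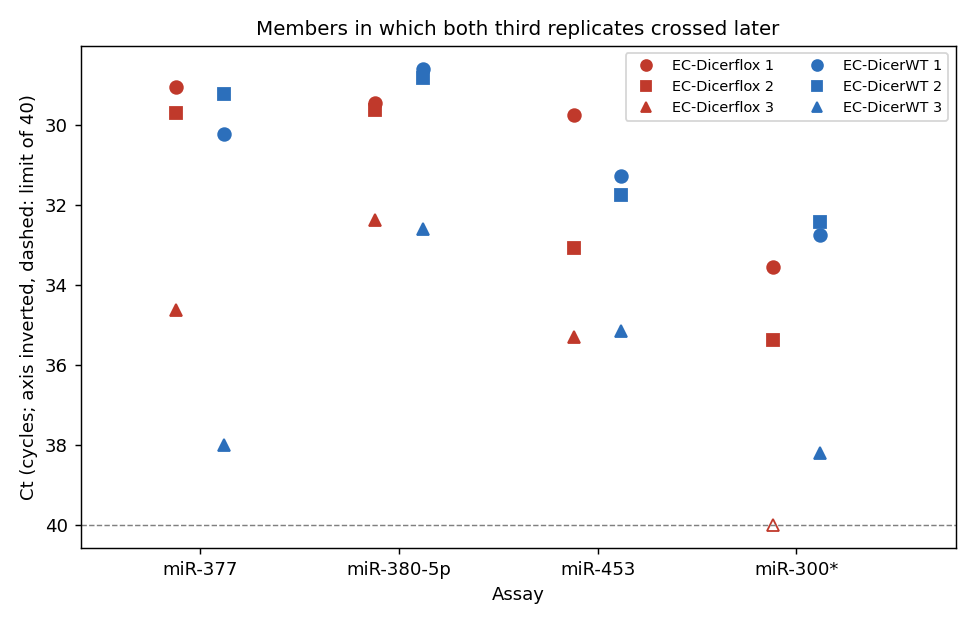
Ct in cycles, on an inverted axis, of the 4 cluster members in which the third replicates of both groups (triangles) crossed more than 2 cycles later than the other samples; colour gives the group, and the open triangle is a well that was not detected. The third replicates of miR-377 stand at 34.62 and 38.00, below the other samples at 29.05 to 30.22.

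Most of the cluster was present in the atherosclerotic aorta. Of the 44 assays, 37 were detected in all 6 samples, 3 in 3 to 5 samples, 2 in 1 sample each and 2 in none. The last were miR-299 and miR-758. MiR-679 was detected only in EC-DicerWT replicate 1 (Ct 38.84) and miR-376c* only in EC-DicerWT replicate 2 (Ct 37.07). Between 38 and 41 members were detected per sample, with 40, 38 and 38 in EC-Dicerflox and 41, 41 and 40 in EC-DicerWT. Detection in at least 3 samples was required for the group test, which left 40 members, 29 on card A and 11 on card B.

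Assays of the cluster spanned a wide range. Among the 37 members detected in all samples the mean level ran from -4.31 for miR-411 to -14.74 for miR-668, a span of 10.43 on the log2 scale. The median of their mean Ct was 29.1, against 26.9 for all 394 miRNA assays detected in all samples. The order began with miR-411 (mean Ct 24.11), miR-382 (24.26), miR-379 (24.43), miR-376c (25.19), miR-134 (25.58) and miR-409-3p (25.94). MiR-134 is known for restraining dendritic spines in neurons, and miR-409-3p has been studied in tumour invasion.

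The members at the top of this order were close together. MiR-411 crossed at 24.15, 23.97 and 24.13 in EC-Dicerflox and at 23.84, 23.89 and 24.72 in EC-DicerWT samples. MiR-379 crossed at 24.25, 24.33 and 24.94 in EC-Dicerflox and at 24.05, 24.03 and 24.98 in EC-DicerWT samples. MiR-382 crossed at 24.10, 24.44 and 24.69 in EC-Dicerflox and at 23.65, 23.68 and 24.99 in EC-DicerWT samples. The ranges of these 3 members overlapped. Within samples, miR-411 crossed before miR-379 in every one, and the place of miR-382 changed from sample to sample. MiR-376c, between 24.65 and 26.03, overlapped in range with miR-134, between 24.75 and 26.71, but crossed before it in every sample.

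Spread between mice grew with Ct. The SD within groups had a median of 0.30 on the log2 scale among the 14 members with a mean Ct under 28. It was 0.55 among the 9 members from 28 to 30, and 1.58 among the 14 members at 30 or more. A difference of 1 log2 unit was thus larger than the SD within groups of each of the early members, which reached 0.54 at most, and smaller than the median SD of the late ones.

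Position along the cluster did not order the levels closely. The 18 members of the first 17 hairpins that were detected in all samples had a median mean level of -8.70, and the 19 of the last 17 hairpins one of -10.46. Early and late assays stood side by side in both stretches. Mean levels ran from -4.31 to -12.34 in the first and from -4.45 to -14.74 in the second. Spearman's rho between the order of the hairpins and the mean level was -0.30 over the 37 members, which come from the same samples and from 31 hairpins and are not independent.

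**Figure D2:**
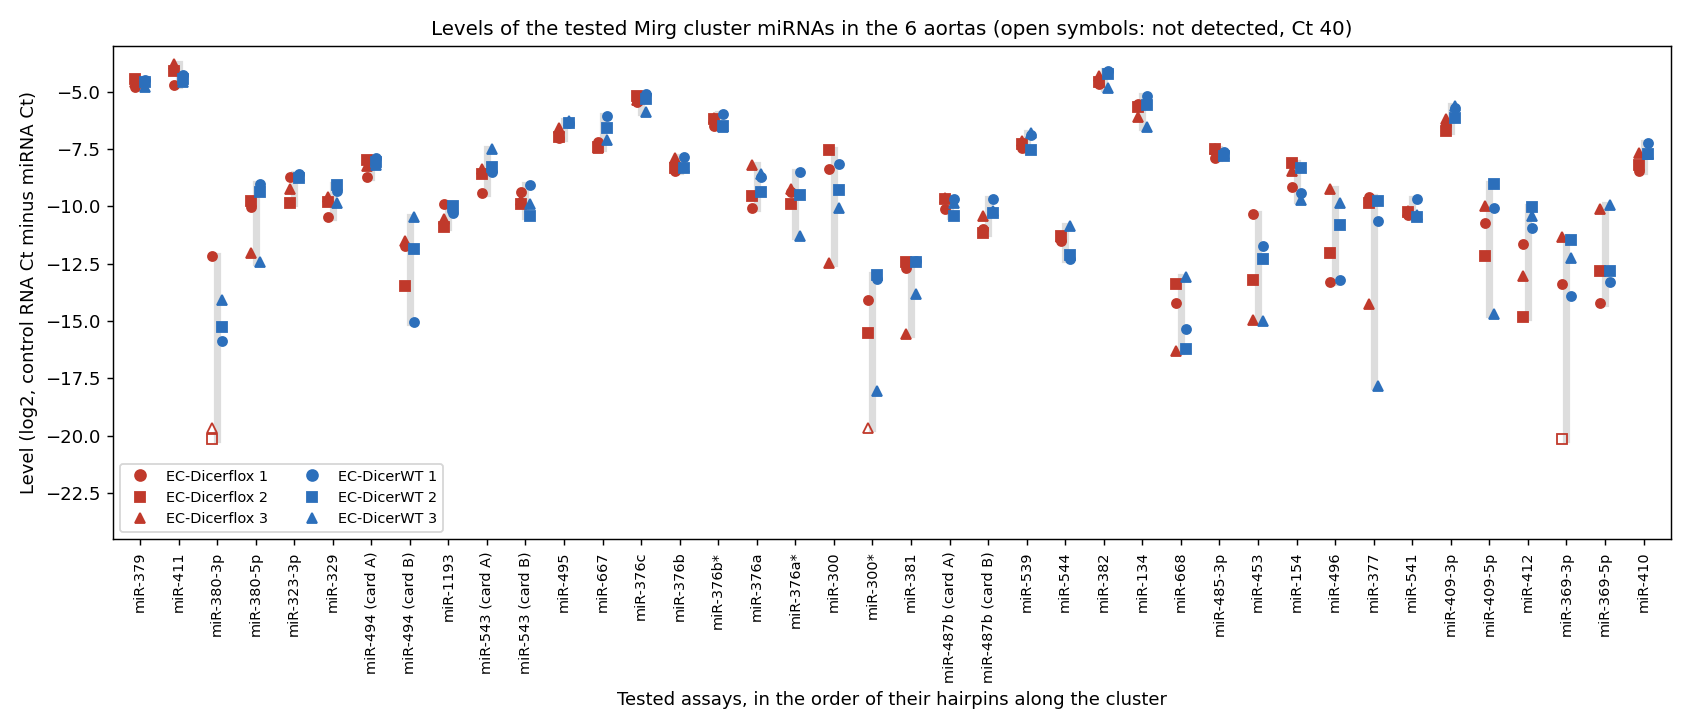
Level on the log2 scale (mean Ct of the control RNAs minus Ct of the miRNA) of the 40 tested members in each sample, in the order of their hairpins from miR-379 to miR-410; colours give the group, symbols the replicate, and grey bars the range. Mean levels between -4 and -6 belong to miR-379, miR-411, miR-376c, miR-382 and miR-134, and ranges widen for members under about -10.

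Both strands of a hairpin were measured for 7 hairpins, and in 3 of them both were detected in all samples. For these the Ct of the 3′ arm minus that of the 5′ arm was taken. The arms of miR-409 were on the same card, but miR-376a and miR-376b were on card A and their starred arms on card B, so that these differences also hold the offset between the cards. In the control RNAs that offset (card B minus card A) lay between -0.37 and 0.31 cycles. For miR-376b minus miR-376b* it was 1.99, 2.14 and 1.72 cycles in EC-Dicerflox and 1.88, 1.81 and 1.74 cycles in EC-DicerWT aortas. The strand named with an asterisk, which older names reserve for the minor strand, thus crossed earlier in all 6 samples, and it did so by 1.5 to 2.03 cycles when each arm was set against the control RNAs of its own card. The EC-Dicerflox mean was 1.95 ± 0.21 cycles (SD, n = 3) and the EC-DicerWT mean 1.81 ± 0.07 cycles (SD, n = 3), a difference of 0.14 (P = 0.4, exact permutation test, two-sided). MiR-376c*, which differs from miR-376b* at 1 position, was detected in 1 sample.

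The arms of the other hairpins varied more. MiR-409-3p crossed earlier than miR-409-5p in every sample, with differences of -4.27, -5.47 and -3.80 cycles in EC-Dicerflox and of -4.36, -2.88 and -9.09 cycles in EC-DicerWT aortas. The widest gap, in EC-DicerWT replicate 3, came with a miR-409-5p Ct of 34.87. MiR-376a and miR-376a* crossed close together, with differences from -1.06 to 0.67 cycles in EC-Dicerflox and from -2.73 to 0.21 cycles in EC-DicerWT aortas. Between the groups the arm difference was 0.64 cycles for miR-376a (P = 0.7, exact permutation test) and 0.93 cycles for miR-409 (P = 0.8, exact permutation test). Benjamini-Hochberg adjustment over the 3 hairpins gave 0.8 for each, and 0.1 is the smallest P that 3 against 3 samples allow. With each arm set against its own card, the group differences were 0.66 for miR-376a and 0.15 for miR-376b. The difference for miR-409 was -1.25 in replicates 1 and 2 alone. Without EC-DicerWT replicate 3 the differences for miR-376a and miR-409 were -0.28 and -0.89.

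In the remaining 4 hairpins, which include miR-376c, 1 arm was not detected in some samples. MiR-300 was detected in all samples and miR-300* in 5. The Ct of miR-300* was 33.54, 35.38 and 40 in EC-Dicerflox and 32.75, 32.42 and 38.20 in EC-DicerWT. MiR-369-5p was detected in all samples and miR-369-3p in 5, with the missing well in EC-Dicerflox replicate 2. MiR-380-5p was detected in all samples and miR-380-3p in 4, with both missing wells in EC-Dicerflox replicates 2 and 3. The Ct of miR-380-3p was 31.59 in EC-Dicerflox replicate 1, earlier than in the EC-DicerWT samples at 35.45, 34.70 and 34.24, so the loss was not shared within the group.

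The names with an assay on both cards show how far a value depends on the assay. For miR-487b the card B assay crossed 0.86, 1.46 and 0.82 cycles after the card A assay in EC-Dicerflox, and 0.04, -0.16 and 0.37 cycles after it in EC-DicerWT aortas. These differences did not overlap between the groups. Their means were 1.05 ± 0.36 (SD, n = 3) and 0.08 ± 0.26 (SD, n = 3), with P = 0.1 by an exact permutation test, the smallest possible, and 0.3 after adjustment over the 3 names. Set against the control RNAs of each card, the miR-487b assays still differed by 0.51 to 1.70 cycles in EC-Dicerflox and by 0.15 to 0.29 cycles in EC-DicerWT. For miR-494 the card B assay crossed 2.25 to 7.13 cycles later, and for miR-543 -0.08 to 2.39 cycles later. The exact permutation P for their group differences was 0.8 and 0.4. Whether both assays of a name detect the same sequence was not analysed here.

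No member of the cluster differed between EC-Dicerflox and EC-DicerWT aortas after adjustment. By limma with Benjamini-Hochberg adjustment over all 439 tested assays, 0 of the 40 members had an adjusted P under 0.05, as did 0 of all assays (0%). The smallest adjusted P of a member was 0.98. At an unadjusted P under 0.05, 2 members (5%) were lower in EC-Dicerflox, against 3.87% of all tested assays. None was higher, against 0.911% of all tested assays. The share of lower members was thus near that of the cards as a whole.

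Changes of the members leaned to lower values as did those of the other miRNAs. Of the 40 members 25 (62.5%) had a log2 change below 0, and of all 439 assays 271 (61.7%) did. The median change was -0.23 for the members and -0.10 for all tested assays, with a range from -2.72 for miR-412 to 1.52 for miR-377, or -1.03 for the latter without EC-DicerWT replicate 3. Per sample, the median deviation of the members from their means was -0.19, -0.12 and 0.04 in EC-Dicerflox and 0.36, 0.13 and -0.08 in EC-DicerWT aortas, so the groups overlapped. By position, 11 of 18 members in the first 17 hairpins and 11 of 19 in the last 17 were below 0, with median changes of -0.27 and -0.12.

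Levels that did not overlap between the groups were found in 5 members (12.5%), all lower in EC-Dicerflox, against 7.06% of all tested assays. In the other direction there was none, against 2.73% of all tested assays. The 5 members were miR-412, miR-487b on card B, miR-667, miR-495 and miR-409-3p. Among their hairpins miR-495 and miR-667 follow each other, as do miR-409 and miR-412, and miR-487b lies apart between these pairs.

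MiR-412 had the lowest change. Its level was -11.65, -14.80 and -13.05 in EC-Dicerflox and -10.93, -10.02 and -10.41 in EC-DicerWT aortas. All EC-DicerWT samples lay within a single log2 unit, and the EC-Dicerflox samples were scattered over more than 3 units. The EC-Dicerflox mean was -13.17 ± 1.58 (SD, n = 3) and the EC-DicerWT mean -10.45 ± 0.46 (SD, n = 3). On the log2 scale the groups differed by -2.72 ± 0.85 (SE), which leaves 15.2% of the level in EC-DicerWT, and by limma the unadjusted P was 0.022 and the adjusted one 0.98. Its mean Ct of 31.62 put it among the late assays. In replicates 1 and 2 alone the change was -2.75 and its unadjusted P was above 0.05. The unadjusted P was also above 0.05 without EC-Dicerflox replicate 3 and without replicate 2 or 3 of EC-DicerWT, and the change ran from -3.48 to -1.90 when a sample was left out.

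MiR-487b gave different values on its cards. On card B its level was -10.98, -11.14 and -10.44 in EC-Dicerflox and -9.69, -10.27 and -10.22 in EC-DicerWT aortas, a change of -0.80 ± 0.31 (SE) with limma P values of 0.046 before and 0.98 after adjustment. On card A the level was -10.12, -9.68 and -9.61 in EC-Dicerflox and -9.65, -10.43 and -9.85 in EC-DicerWT, a change of 0.17 ± 0.30 (SE) with an unadjusted P of 0.60. The lower value of miR-487b was thus seen with 1 of its 2 assays. Of the 6 fits that each left out a sample, the card B assay kept an unadjusted P under 0.05 only in the fit without EC-Dicerflox replicate 3, with changes from -1.0 to -0.61.

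The other 3 members without overlap crossed early and had smaller changes. MiR-667 had levels of -7.20, -7.42 and -7.47 in EC-Dicerflox and of -6.06, -6.57 and -7.12 in EC-DicerWT aortas. Its change was -0.78 ± 0.33 (SE), with an unadjusted P of 0.062. The gap between the nearest samples of the groups was small beside the range in EC-DicerWT.

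MiR-495 had levels of -7.02, -6.96 and -6.57 in EC-Dicerflox and of -6.38, -6.35 and -6.26 in EC-DicerWT aortas. The EC-DicerWT samples were nearly equal. The change was -0.52 ± 0.22 (SE), which leaves 69.7% of the level in EC-DicerWT, with an unadjusted P of 0.063.

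MiR-409-3p had levels of -6.43, -6.71 and -6.18 in EC-Dicerflox and of -5.71, -6.14 and -5.61 in EC-DicerWT aortas. Its highest EC-Dicerflox and lowest EC-DicerWT sample almost touched. Its change was -0.62 ± 0.27 (SE), or 65.3%, with an unadjusted P of 0.066. The adjusted P of these 3 members was 0.98. With the third replicates entered as a batch, miR-409-3p, miR-412, miR-495 and miR-667 all had an unadjusted P under 0.05, together with miR-300*. Over all 439 tested assays 21 were lower at that threshold in this fit. In replicates 1 and 2 alone miR-487b on card B and miR-667 were lower at that threshold, and miR-544 and miR-668 were higher. Over all assays tested in that fit 19 passed the threshold, 9 of them lower.

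**Figure D3:**
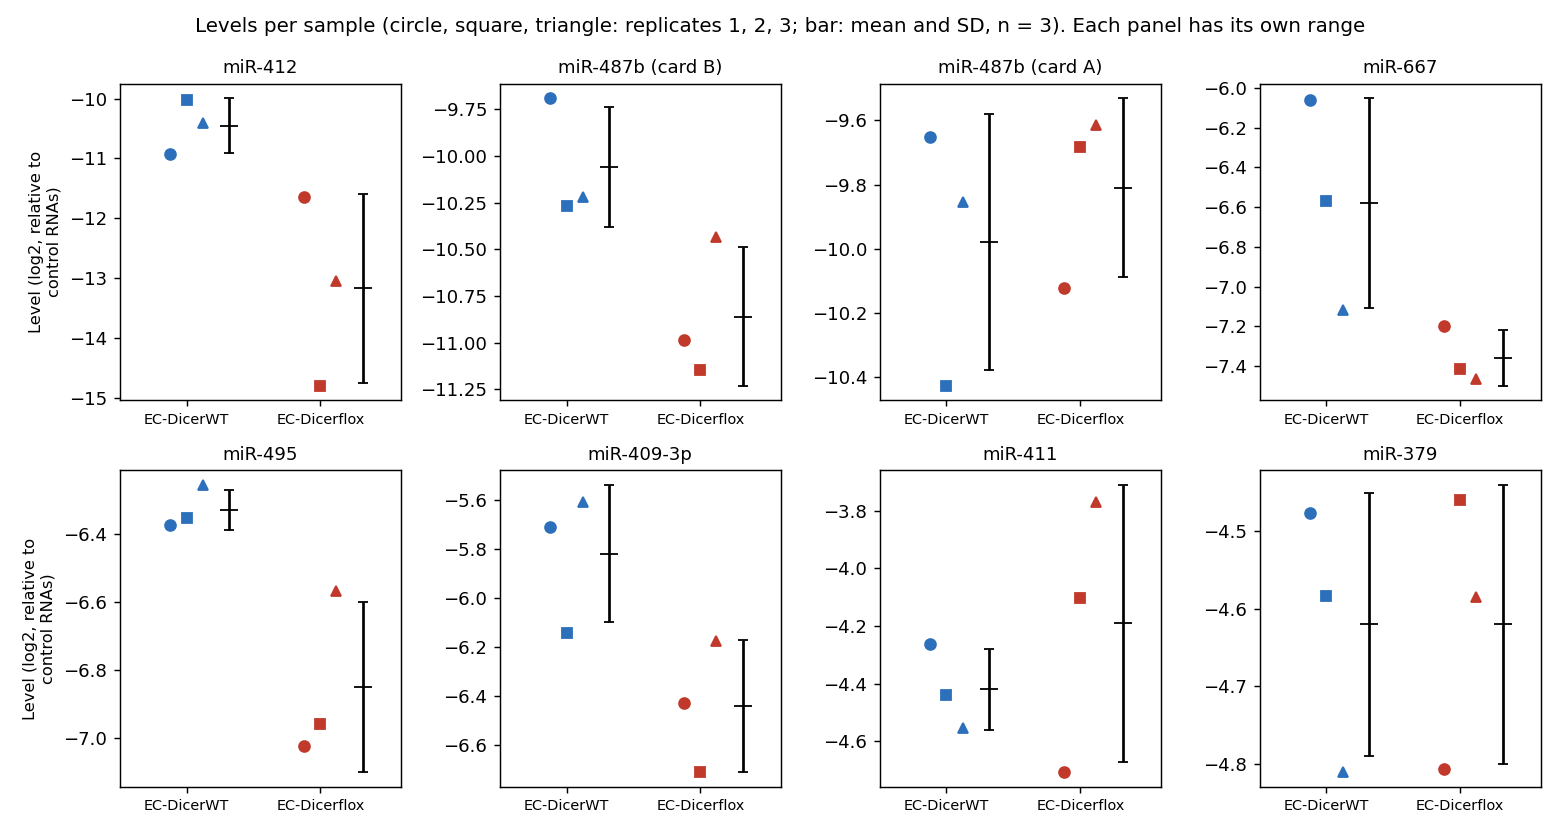
Level per sample (log2, against the control RNAs) for the 5 assays whose groups did not overlap, the other miR-487b assay, miR-411 and miR-379; black bars are the mean and SD (n = 3), and each panel has its own axis range. For miR-412 the EC-Dicerflox samples lie between -14.80 and -11.65 and the EC-DicerWT samples between -10.93 and -10.02, whereas for miR-379 the groups cover the same range.

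Of the 6 members with the lowest mean Ct, all but miR-409-3p overlapped between the groups. MiR-379 had levels of -4.81, -4.46 and -4.58 in EC-Dicerflox and of -4.48, -4.58 and -4.81 in EC-DicerWT aortas. Its change of 0.01 ± 0.22 (SE) had a 95% interval from -0.55 to 0.56. MiR-411, with nearly the same seed, had levels of -4.71, -4.10 and -3.77 in EC-Dicerflox and of -4.26, -4.44 and -4.55 in EC-DicerWT. Its change was 0.23 ± 0.31 (SE), with an interval from -0.56 to 1.01. With U6 alone as reference, the values of miR-379 and miR-411 turned to -0.37 and -0.15.

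MiR-382 (-0.14 ± 0.28, SE), miR-376c (0.09 ± 0.28, SE) and miR-134 (-0.01 ± 0.42, SE) also had intervals that included 0, as did all tested members but miR-412 and miR-487b on card B. Of the 14 members with a mean Ct under 28, 9 were below 0, 10 had a change of less than 0.3 in size, and the range was from -0.78 to 0.23. The widest intervals belonged to late assays. MiR-377, the highest at 1.52 ± 2.60 (SE), was one of those in which the third replicates stood apart. Its change was 0.49 in replicates 1 and 2 alone, and it turned to -1.03 without EC-DicerWT replicate 3, so the top of the range rests on that sample.

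**Figure D4:**
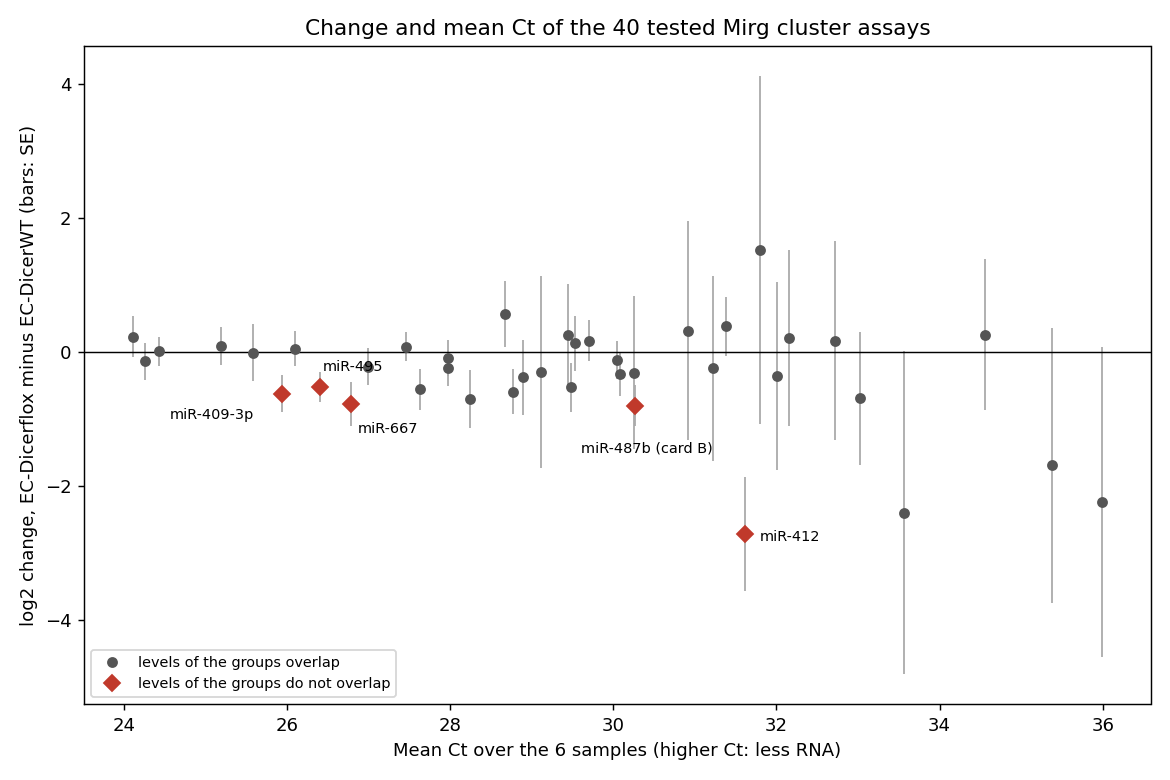
Log2 change (EC-Dicerflox minus EC-DicerWT, bars are the SE) against the mean Ct over the 6 samples for the 40 tested members; red diamonds are the 5 assays whose levels did not overlap between the groups. Changes of members under a mean Ct of 28 lie between -0.78 and 0.23, and errors widen above a Ct of 30.

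Of the members between these, some were measured closely and some were not. MiR-485-3p, from a hairpin known for its part at synapses, had levels from -7.88 to -7.48 in EC-Dicerflox and from -7.78 to -7.60 in EC-DicerWT aortas, with a change of 0.08 ± 0.22 (SE). MiR-539 had a change of -0.22 ± 0.28 and miR-541 one of -0.12 ± 0.28. MiR-323-3p had levels of -8.69, -9.85 and -9.24 in EC-Dicerflox and of -8.58, -8.74 and -8.68 in EC-DicerWT aortas. Here the EC-DicerWT samples stood close together and EC-Dicerflox replicate 1 lay among them, and the change was -0.59 ± 0.34 (SE). MiR-154 had the highest value among members with a mean Ct under 30, at 0.57 ± 0.49 (SE).

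The remaining vascular members lay within the spread. MiR-329 had levels of -10.46, -9.79 and -9.57 in EC-Dicerflox and of -9.31, -9.05 and -9.87 in EC-DicerWT aortas. The groups overlapped through EC-DicerWT replicate 3, and the change was -0.53 ± 0.36 (SE) with an unadjusted P of 0.20. MiR-494 had a change of -0.24 ± 0.27 (SE) on card A and of 0.21 ± 1.31 (SE) on card B, where its level ran from -15.03 to -10.46.

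Changes of the miR-376 strands were within their errors. They were -0.38 ± 0.56 (SE) for miR-376a, 0.26 ± 0.75 for miR-376a*, -0.09 ± 0.27 for miR-376b and 0.05 ± 0.26 for miR-376b*. The hairpins of these strands are edited from A to I in several tissues, and edited and unedited forms were not told apart here. MiR-410, the last of the cluster, had levels from -8.43 to -7.69 in EC-Dicerflox and from -7.71 to -7.24 in EC-DicerWT aortas. Its change was -0.56 ± 0.30 (SE) with an unadjusted P of 0.12.

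The miRNAs of the domain outside the cluster are made from neighbouring transcripts, among them an antisense transcript of Rtl1. Of 23 such assays 15 were tested, of which 13 (86.7%) were below 0, against 61.7% of all tested assays, with a median change of -0.40. At an unadjusted P under 0.05, 2 of them were lower (13.3%, against 3.87% of all tested assays), miR-431 with -1.97 ± 0.37 (SE) and miR-433 with -1.50 ± 0.26 (SE), each with an adjusted P of 0.62. Within the cluster the corresponding count was 2 of 40. The difference between both stretches of the domain was not tested.

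The summed level of each of 7 lists of cell type markers overlapped between the groups. For the smooth muscle list it lay between 5.34 and 6.06 in EC-Dicerflox and between 5.28 and 5.79 in EC-DicerWT aortas. For endothelium it lay between 1.98 and 2.76 and between 2.14 and 2.82. For neurons, where the cluster is known best, it lay between -3.78 and -3.23 and between -3.75 and -3.53, with 6 of 7 markers detected in all samples. The differences of the summed levels ran from -0.09 for endothelium to 0.16 for neurons. Among single markers, 1 of 5 for striated muscle, miR-208, had an unadjusted P under 0.05, and none in the other lists did. Of these 5 markers 4 were detected in all samples. Of the leukocyte markers 5 of 6 had a change below 0, with a summed level that differed by -0.04. Their part in the values of single members was not tested.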

How the data were processed

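MiRNAs were measured in total RNA of 3 EC-Dicerflox and 3 EC-DicerWT aortas from 3 mice per group, labelled as biological replicates. Per the methods, reverse transcription and preamplification used rodent primer pools, and TaqMan array cards were read on a real-time PCR system. The other deposited values, neither counts nor normalised, were raw cycle thresholds set by the authors, with 40 for undetected wells. Baseline and threshold settings were not given in the sources used here. Read depth does not apply to Ct values, and 3 samples per group limit the precision. The card was inferred from the length of the assay number.

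Levels were computed as the mean Ct of the control RNAs (Y1, U87, U6, snoRNA202 and snoRNA135) minus the Ct of the assay. Assays detected in at least 3 of 6 samples were compared with limma 3.58.1 in R 4.3.3 (lmFit and eBayes, two-sided), with Benjamini-Hochberg adjustment over all tested assays. The fit was tested on simulated data. Arm and card differences were compared by exact permutation tests over the 20 assignments of samples. The test of card differences and the comparison of pairs against the control RNAs of their own card were added after the values were seen. Alternatives were other references, detection filters, a limit of Ct 35, missing wells, variance models, a replicate block, a batch of the third replicates, and leaving out samples. Members named were those with an unadjusted P under 0.05, without overlap, the 6 with the lowest mean Ct, miR-329, miR-487b, miR-494 and miR-495, both arms of tested hairpins, members detected in no sample, and others as ends of ranges or examples. The members and lists were chosen with earlier results of these data known.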

Additional observations from a re-analysis of the deposited data

Results flagged for a closer look

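An assay of a plant miRNA, which mice lack and which enters no comparison, had a Ct of 39.776 on card A in EC-Dicerflox replicate 1. It was undetected in the other samples and on card B, and 0 of the cluster members had a detected Ct as late as that.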

How the results depend on the processing

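The count of members with an adjusted P under 0.05 was 0 in all 20 alternatives, and their median change stayed below 0. The variance models, the replicate block and the batch of the third replicates could not alter this median. It moved to -0.61 with U6 alone, where the median of all tested assays moved from -0.10 to -0.48. The members lay 0.13 below all assays under either reference, but a new reference shifts every assay alike and cannot alter this gap. With a sample dropped, the gap (members minus all assays) ran from -0.26 to 0.02. It was lowest when EC-DicerWT replicate 3 was dropped, and highest for EC-DicerWT replicate 1 or EC-Dicerflox replicate 3. With undetected wells missing the gap was -0.01. Leaving out a sample gave medians of the members from -0.38 to -0.06. Lower members at an unadjusted P under 0.05 numbered 1 with snoRNA135 alone, with detection in 1 sample or more, or with an intensity trend. They numbered 5 with the third replicates as a batch. Over all tested assays the lower ones in these settings were 11 of 439, 13 of 490, 13 of 439 and 21 of 439. Higher members numbered 1 with undetected wells missing and 2 in replicates 1 and 2 alone. Over all tested assays 25 and 19 passed that threshold in these settings, 18 and 9 of them lower. Leaving out a sample gave 1 to 3 lower and 0 to 1 higher members. The higher member came without EC-DicerWT replicate 3, where 11 of 438 assays passed that threshold, 8 of them lower. There was 1 lower member without EC-Dicerflox replicate 2 and without each of the EC-DicerWT samples. Over all assays, the fits that left out any of the samples had 6 to 13 lower, of 429 to 438 tested. Apart from the common shift that a new reference brings, the cause of these moves was not tested.

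MiR-412, miR-487b on card B, miR-667, miR-495 and miR-409-3p stayed below 0 in all 20 alternatives, with an unadjusted P under 0.05 in 15, 7, 3, 5 and 4 of them. As their levels did not overlap between the groups, only another reference could have turned their sign. Changes close to 0 turned sign. With U6 alone these were miR-376a* (-0.12), miR-376b* (-0.33), miR-376c (-0.29), miR-379 (-0.37), miR-409-5p (-0.06), miR-411 (-0.15), miR-485-3p (-0.30), miR-487b on card A (-0.21) and miR-494 on card B (-0.16). With U6 and snoRNA135, miR-376b* (-0.11), miR-376c (-0.08), miR-379 (-0.16) and miR-485-3p (-0.09) did so. MiR-134 turned to 0.04 with the global mean and to 0.04 with snoRNA135, and miR-379 to -0.0031 with a reference per card. In replicates 1 and 2 alone, miR-376a* (-0.64), miR-376b* (-0.11), miR-376c (-0.11), miR-379 (-0.10), miR-409-5p (-1.89) and miR-411 (-0.05) turned, as did the arm difference of miR-409 (-1.25).

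When a sample was left out, changes ranged from -0.40 to 0.29 for miR-134, -0.92 to 0.01 for miR-376a, -0.51 to 0.89 for miR-376a*, -0.26 to 0.07 for miR-376b and -0.05 to 0.24 for miR-376b*. They ranged from -0.13 to 0.26 for miR-376c, -0.09 to 0.10 for miR-379, -0.36 to 0.01 for miR-382, -1.40 to 1.44 for miR-409-5p, -0.05 to 0.33 for miR-487b on card A and -1.08 to 1.20 for miR-494 on card B. Further ranges were -0.76 to -0.27 for miR-329, 0.01 to 0.48 for miR-411, -0.41 to -0.05 for miR-494 on card A, -1.03 to 3.03 for miR-377 (lowest without EC-DicerWT replicate 3) and -0.26 to 0.12 for miR-541. They were 0.29 to 0.97 for miR-154, -0.87 to -0.30 for miR-323-3p, -0.45 to -0.08 for miR-539 and 0.01 to 0.21 for miR-485-3p. The arm difference ranged from -0.28 to 1.19 for miR-376a and from -0.89 to 2.22 for miR-409, lowest without EC-DicerWT replicate 3 in both, and from 0.04 to 0.25 for miR-376b. The card difference of miR-494 between the groups ranged from -1.53 to 0.91 (highest without EC-DicerWT replicate 1), that of miR-543 from -1.38 to -0.35 and that of miR-487b from 0.76 to 1.11.

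Samples with the same replicate number did not all deviate together (r = 0.15, -0.06 and 0.31 across assays), and 3 of 6 samples matched their own number best, so the numbers were not taken as a pairing. With a replicate block the median change of the members was -0.23, as without it. Each number holds a sample of both groups, so the block cannot alter a change, only its error. In that fit 2 members (miR-300* and miR-409-3p) had an unadjusted P under 0.05, against 17 of all 439 tested assays, and none an adjusted one. Neither was among the members past that threshold without the block.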
